A study of Mus musculus with 2 samples.

Results

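The transcript models described here were incomplete splice matches with no subtype, called ISM None below. In an incomplete splice match (ISM), as usually defined, the introns form an uninterrupted run within the intron chain of a known transcript, or the model has no intron and lies in an exon. The authors' tables divide the class into suffix models, which reach the 3′ end of the known splice chain, prefix models, which reach its 5′ end, models that are both, and models with the subtype None. All models with the class ISM and the subtype None were taken, and spike-in RNAs were left out. Replicate 1 held 1422 such models among 56747 mouse models, and replicate 2 held 1821 among 68983. Some of them did not meet the usual definition in the GENCODE M21 annotation. Spliced models that matched no annotated intron chain numbered 11 in replicate 1 and 21 in replicate 2. Single-exon models that overlapped no exon of their annotated gene numbered 8 and 17.

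The series profiled hearts of male B6CASTF1/J mice, which are F1 crosses of C57BL and the wild-derived CAST strain, at 2 months of age. The 2 libraries formed 1 group and had a starting quantity of 2 µg of RNA each, with no treatment and no transgene named in the labels. The labels gave each library its own biosample from a numbered animal, but gave both the same donor identifier, and a second text field named the same animal for both. The libraries were used as separate samples, and the spread between them may be technical.

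Long-read RNA sequencing copies messenger RNA into cDNA, usually from the poly(A) tail, and aims to read each copy from end to end. A read whose copy stopped before the 5′ end of the transcript covers only the 3′ exons. If no splice junction is left in it, the read lies in a single exon, and a program such as TALON must then place it without the help of an intron chain.

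Replicate 1 held 447650 mouse reads and replicate 2 held 654130, of which 430251 and 629896 fell in annotated nuclear genes and served as the total for levels in CPM, the reads scaled to a common total. The 3 reads that a count of 0 allows correspond to 6.97 CPM in replicate 1 and to 4.76 CPM in replicate 2. All 9 cardiomyocyte markers were read in both libraries, with Myh6, the alpha myosin heavy chain, at 36490 and 27652 CPM. All 5 erythroid markers were higher in replicate 1, where they summed to 13799 CPM, against 3663 CPM in replicate 2. A value with ± is a mean and SD with n = 2 libraries, and the range after a share in 1 library is its exact Clopper-Pearson 95% interval, which covers counting error only.

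The sequences that mark both edges of the most-read ISM None exons are shown because these models begin at a splice site and stop at a transcript end. In the first set, lower case letters are the last 15 bases of the exon before, and capitals are the first 15 bases of the exon that equals the ISM None model, both taken from GENCODE M21 transcripts on mm10.
Slc25a4 (model chr8:46206797-46207620, minus strand): ctggccggaaaggggCTGATATTATGTACA
Ndufb3 (model chr1:58595649-58595964, plus strand): ggatccatgggctcgCAATGAGGCTTGGAG
Uqcrq (model chr11:53428953-53429150, minus strand): tgaagattatgttagCGTTTGTAGTGGTCT
Acot13 (model chr13:24817948-24818191, minus strand): ggacatgaacataacGTACATGTCACCTGC

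The second set gives the last 30 bases of 7 such exons, with a polyadenylation hexamer in capitals where AATAAA or ATTAAA was found. The hexamer is the sequence that the cleavage and polyadenylation machinery recognises near the end of a transcript. The exons of Mrpl30, Gabarapl1 and Acot13 here, and that of Uqcrq above, were added after their values were seen, because their class differed between the libraries.
Slc25a4: ccaagtggacaatataaactgaagaacagt
Cox6a2: caagcaatacattgaatattgagcatatta
Ndufb3: tcttaAATAAAattaaaaagaaaactgtaa
Mcee: aagATTAAAatatatgcacatgtatataca
Mrpl30: ttctcATTAAAgtgtatgttcatccagtca
Gabarapl1: cttaccttaaaagtctacctggactcagaa
Acot13: ttctgaAATAAAttatcaaaaccagaagta

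ISM None models were few and mostly unspliced. They took 10903 reads in replicate 1, 2.44% of mouse reads (2.39 to 2.48), and 16244 reads in replicate 2, 2.48% (2.45 to 2.52). ISM suffix models took 7.59 ± 0.17% and genomic models, which lie in a gene but do not keep to its splice sites, took 4.51 ± 0.33%. A single exon made up 1336 of the 1422 models in replicate 1 (94.0%) and 1700 of the 1821 in replicate 2 (93.4%), and these held 99.1% and 99.2% of the ISM None reads. No suffix, prefix or NIC model had 1 exon, since those classes need introns.

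Reads were concentrated in few models. A single read supported 682 models in replicate 1 (48.0%) and 839 in replicate 2 (46.1%). The 143 and 226 models with 10 or more reads held 73.6% and 77.7% of the ISM None reads, and the 10 most-read models alone held 44.1% and 42.4%. Protein-coding genes carried 10828 of the reads in replicate 1 and 16074 in replicate 2. No model lay on the mitochondrial genome, and 12 models in replicate 1 and 23 in replicate 2 lay in loci that GENCODE M21 lacks.

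The subtype None did not mean that the models lay on internal exons. Of the single-exon models, 1161 in replicate 1 (86.9%) and 1407 in replicate 2 (82.8%) had exactly the edges of an annotated exon. Of these, 1115 (96.0%, 94.8 to 97.1) and 1361 (96.7%, 95.7 to 97.6) were the last exon of a spliced transcript, although last exons made up only 23.9% and 23.6% of the annotated exons of the same genes. First exons numbered 32 in each library, and internal exons 13 in replicate 1 and 14 in replicate 2. A match to an annotated exon in part follows from the class itself, but its place as the last exon of a transcript does not enter the rule. Such an exon need not lie at the 3′ end of the gene. The Gmpr model, on the plus strand, ended at position 45546382, while its gene ran to 45553800.

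Most of the remaining single-exon models were also placed at last exons. A further 87 models in replicate 1 and 161 in replicate 2 began at the 5′ edge of a last exon but ended elsewhere. Of these, 69 and 127 were shorter than the annotated exon and 17 and 34 were longer, with a median shift of 688 and 817 bases. With the models that overlapped a last exon without sharing its edges, 94.7% and 94.6% of single-exon models lay at the last exon of an annotated transcript. These models held 98.7% and 98.5% of the reads. By position they are therefore called terminal-exon models below. The position was not particular to the class. Of single-exon genomic models, 77.2% in replicate 1 and 78.9% in replicate 2, with 90.0% and 91.9% of their reads, lay at a last exon.

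**Figure D1:**
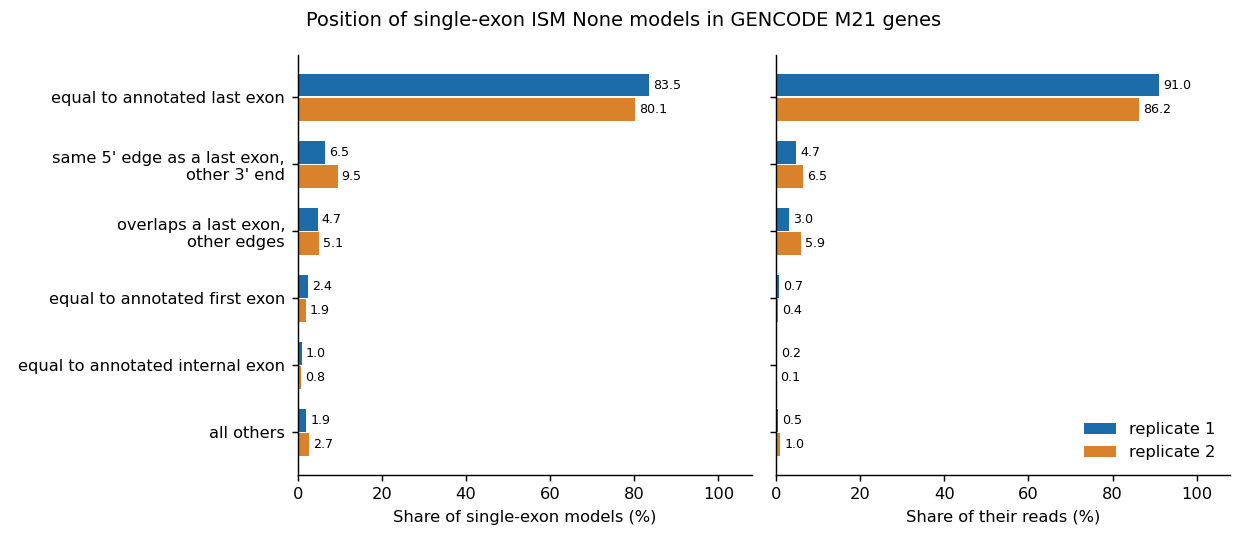
Horizontal bars give the share of single-exon ISM None models (left) and of their reads (right) in each position of GENCODE M21 genes, in percent, with replicate 1 in blue above replicate 2 in orange. Models equal to an annotated last exon made up 83.5% in replicate 1 and 80.1% in replicate 2, and first and internal exons together stayed under 4%.

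The terminal exons usually held the end of the coding sequence with the 3′ UTR. Among models equal to a last exon, 890 in replicate 1 (79.8%) and 1056 in replicate 2 (77.6%) held both coding and untranslated bases, with a median of 20.9% and 20.6% of their bases coding. UTR alone made up 87 and 111 models, coding sequence alone 0 and 2, and the transcripts that own the exon were annotated without coding sequence for 138 and 192. The exon covered a median of 39.3% and 40.5% of the length of its longest annotated transcript.

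The models were short. The median length of single-exon ISM None models was 620 bases in replicate 1 and 647 bases in replicate 2, against 2424.5 and 2347 bases for known transcripts and 2201 and 2119 bases for ISM suffix models. Lengths and positions are those of the model and not of single reads, so reads inside an exon may be shorter than the exon itself.

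**Figure D2:**
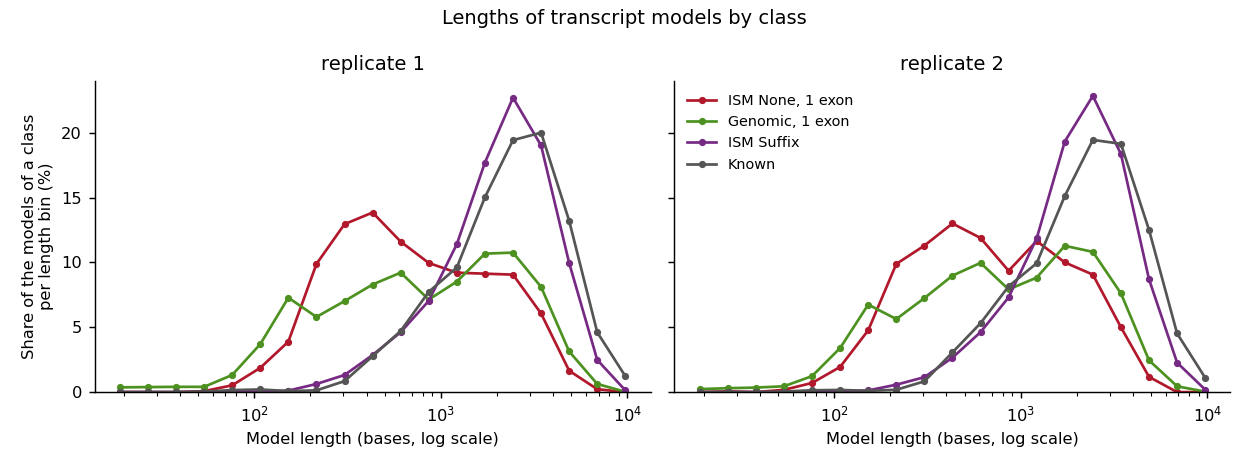
Lines give the share of the models of a class per length bin, in percent, against model length in bases on a log scale, for replicate 1 (left) and replicate 2 (right). Single-exon ISM None models, in red, sit to the left of ISM suffix and known models, with medians of 620 and 647 bases. Single-exon genomic models, in green, spread over a wider range. The bins start at 16 bases, so shorter models are not drawn. In replicate 1 398 single-exon genomic models, and in replicate 2 429, had fewer than 50 bases.

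The 3′ ends lay mostly near annotated transcript ends, and the 5′ ends seldom lay near annotated transcript starts. The 3′ end lay within 50 bases of an annotated transcript end of the gene for 87.9% of ISM None models in replicate 1 and 85.3% in replicate 2, which is near the 88.8% and 89.0% of suffix models and above the 61.2% and 62.7% of genomic models. The 5′ end lay within 50 bases of an annotated start for 4.0% and 3.1%, against 21.2% and 20.6% of suffix models. The mean over the libraries was 3.52%, or 2.33% for single-exon models, and 0.736% when models were weighted by reads. These shares describe model edges, which for models equal to an annotated exon are the annotated edges. The 5′ edge of a model equal to a last exon is its splice site, so the low share near starts in part follows from that position.

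A hexamer stood near the 3′ end in most models. AATAAA or ATTAAA, searched on the transcript strand, was present in the last 50 bases of 78.5% of the 1363 models in replicate 1 and 78.3% of the 1709 models in replicate 2 whose last 100 bases could be read. In the 50 bases before that window the share was 5.5% and 4.6%. For models equal to an annotated last exon, both windows are those of the annotated end and not of read ends. Known transcripts held a hexamer in the last 50 bases in 71.9% and 71.5%, ISM suffix models in 81.5% and 80.8%, and genomic models in 78.8% and 78.3%. The bases could be read only inside annotated exons. The genomic share therefore covers 3268 of 5100 models in replicate 1 and 4113 of 6248 in replicate 2, and leaves out those that end elsewhere. Weighted by reads, the share of ISM None models was 62.6 ± 3.5%. The most-read genes, Slc25a4 and Cox6a2, had no such hexamer in their last 50 bases. A stretch rich in A after the 3′ end, at least 12 of 20 bases, was found in 6.54% of 367 readable models in replicate 1 and 7.68% of 508 in replicate 2, and the other models could not be read because only annotated transcripts, and no genome, were at hand.

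The spliced minority was of another kind. ISM None models with 2 or more exons numbered 86 in replicate 1, with 93 reads in all, and 121 in replicate 2, with 126 reads. In 75 and 100 of them the introns lay inside an annotated chain and touched neither its first nor its last intron, which is what the subtype name describes. They had a median of 7 and 6 exons, and 84 and 116 rested on 1 read. Ryr2, the calcium release channel of the sarcoplasmic reticulum, gave the model with most exons in replicate 1, with 40 exons and 6197 bases in 1 read. The most-read spliced models were an 11-exon model of Idh3a, a subunit of a citric acid cycle dehydrogenase, with 6 reads, and an 11-exon model of Mef2d, a muscle transcription factor, with 3 reads, both in replicate 1. The intron chains of both matched no annotated chain of the gene, as was the case for 11 spliced models in replicate 1 and 21 in replicate 2. Replicate 2 had a 17-exon model of Ktn1 and a 10-exon model of Il11ra1 with 2 reads each. Ryr2 is named after its value was seen. Only 1 spliced model was found in both libraries.

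ISM None reads were concentrated in a small number of genes. The 20 genes with the highest mean level held 48.4% of ISM None reads of annotated nuclear genes in replicate 1 and 47.3% in replicate 2. Slc25a4 (ENSMUSG00000031633.4), the ADP/ATP carrier of the mitochondrial inner membrane in heart and muscle, had 2252 ISM None reads in replicate 1, against 3959 in replicate 2. That was 20.7% and 24.4% of all ISM None reads of these genes, in a single 824-base terminal exon. Its level was 5234 and 6285 CPM, a ratio of 0.833 (0.790 to 0.877), which passed the exact binomial test with Benjamini-Hochberg adjustment (adjusted p = 4.84e-10) and stayed under the 2-fold needed for a call.

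Cox6a2 (ENSMUSG00000030785.8), the muscle isoform of a cytochrome c oxidase subunit, had 515 reads in replicate 1 and 761 in replicate 2, or 1197 and 1208 CPM. Ndufb3 (ENSMUSG00000026032.8), an accessory subunit of complex I, had 366 and 587 reads, or 851 and 932 CPM. Mcee, the methylmalonyl-CoA epimerase, had 164 and 270 reads, or 381 and 429 CPM. These levels agreed between the libraries within 1.5-fold.

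Further respiratory chain genes followed at lower levels. Cox7a1, the muscle isoform of another cytochrome c oxidase subunit, had 458 CPM in replicate 1 and 370 CPM in replicate 2. Ndufa5, also of complex I, had 244 and 260 CPM. Atp5o, a stalk subunit of ATP synthase, had 146 and 116 CPM, and Sdhd, a membrane anchor of succinate dehydrogenase, had 116 and 164 CPM. Among structural genes, the intermediate filament desmin (Des) had 342 and 384 CPM, the cardiac troponin I gene Tnni3 had 163 and 140 CPM, and Myom1, a myosin-binding protein of the M-band, had 128 and 127 CPM. Other genes of the 20 with like levels in the libraries were Prdx2, an antioxidant peroxiredoxin, with 212 and 237 CPM, and Gmpr, a reductase of purine metabolism, with 163 and 171 CPM. The Des model began at the 5′ edge of the last exon and ended 1 base apart in the libraries, at 712 and 713 bases, and so had no annotated exon equal to it.

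**Figure D3:**
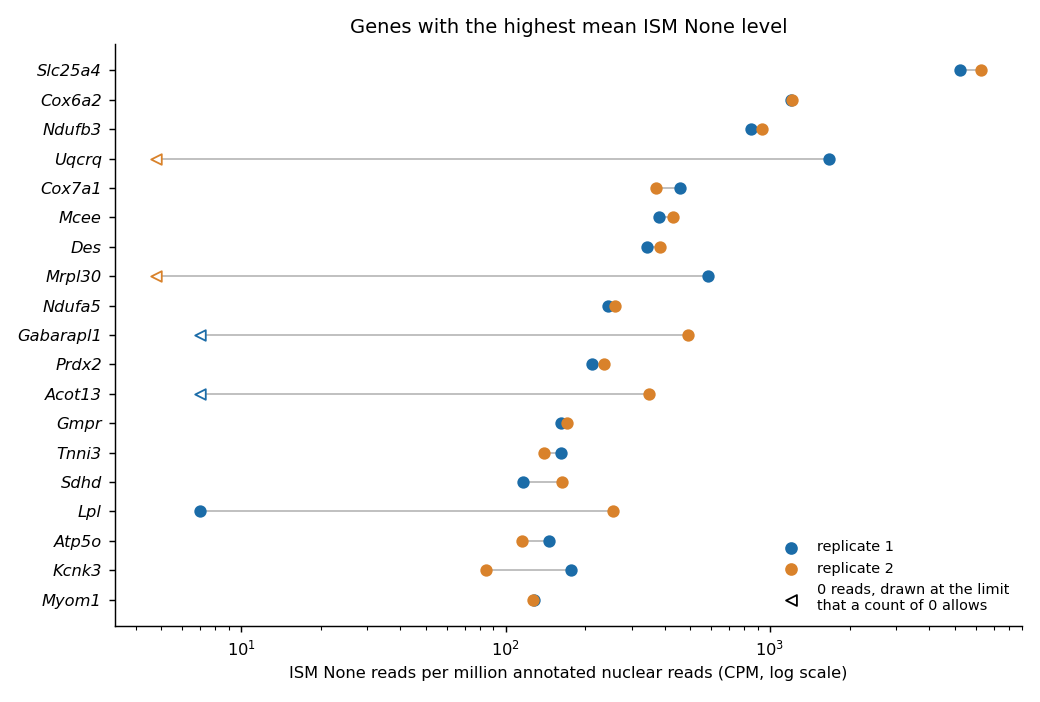
Points give the level of ISM None reads in CPM, on a log scale, for 19 of the 20 genes with the highest mean level, in replicate 1 (blue) and replicate 2 (orange). Of these genes, Uqcrq, Mrpl30, Gabarapl1 and Acot13 had 0 reads in a library, drawn as open triangles at the limit that a count of 0 allows, while most others lie close together.

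For some genes the terminal exon held more reads than all spliced models together. In Ndufb3, ISM None models took 73.1% of the reads of the gene in replicate 1 and 74.2% in replicate 2, with 134 and 200 reads left in known transcripts. In Mcee they took 71.0% and 73.6%. Shld1, a subunit of the shieldin complex of DNA repair, had 74.5% and 72.6%, but from 51 and 73 reads in all. The 15 genes with the largest mean share, among the 3318 genes that had 20 or more reads in both libraries, ran down to 44.8 ± 2.7% in Smim8. They included Xirp2, an actin-binding protein of striated muscle, at 61.2 ± 3.6%, Ndufaf7, an assembly factor of complex I, at 60.7 ± 0.2%, the ribosomal protein gene Rpl39 at 54.4 ± 4.7%, Ppp1r3c, a glycogen-targeting subunit of a protein phosphatase, at 53.3 ± 4.7%, and Speg, a kinase of striated muscle, at 47.0 ± 7.5%.

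Other members of that group were Nol7 at 60.8 ± 3.8%, Cdc34, a ubiquitin-conjugating enzyme, at 51.4 ± 5.4%, Orc3, of the origin recognition complex, at 51.0 ± 7.1%, Tmem160 at 50.9 ± 7.7%, Dcun1d5 at 45.8 ± 0.5% and Trp53inp2, which acts in autophagy, at 45.3 ± 0.04%. Over all 3318 genes the median share was 0%, so most genes at that depth had no ISM None read or nearly none.

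The class total differed little between the libraries, while many single genes differed. In annotated nuclear genes, ISM None reads made up 2.53% in replicate 1 and 2.57% in replicate 2. The libraries were compared for every gene and class with at least 10 summed reads by an exact two-sided binomial test, and a unit with at least a 2-fold difference was called where the adjusted p was under 0.05. Of 352 genes tested on ISM None reads, 92 were called (26.1%), against 2.59% of all 10069 units. Of the 92, 43 were higher in replicate 1 (1.32% of all units were) and 49 were higher in replicate 2 (1.27% of all units were). Known transcripts were called in 26 of 6351 genes (0.41%), suffix models in 12 of 1057 (1.1%) and genomic models in 76 of 757. Its p-values cover counting error between these 2 libraries and nothing more.

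The called genes were mostly present in one library and at 0 in the other. The lower library had 0 ISM None reads in 85 of the 92 genes. Set against the 3 reads that a count of 0 allows, the difference ran from 2.96-fold to 349-fold. These values leave out counting error in the higher library, so they are not strict lower bounds. In 90 of the 92 genes the lower library held reads in single-exon genomic models of the same gene, at least 10 such reads in 62 of them. The higher library also held such reads in 16 of the 92. These counts cover the whole gene and not only the ISM None exon, and no such share is given for the other tested genes. The total of the gene, over all classes, differed by less than 2-fold in 91 of the 92. The sum of ISM None and single-exon genomic reads differed by less than 2-fold in 74 of the 92 and by 2-fold or more in 18. Among those 18, named after their values were seen, the sum was 5.12-fold higher in replicate 1 for Unc45b, a myosin chaperone. It was 3.76-fold higher in replicate 2 for Hspb6, a small heat shock protein.

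Uqcrq (ENSMUSG00000044894.14), a subunit of complex III of the respiratory chain, had 716 ISM None reads in replicate 1 and 0 in replicate 2. The level in replicate 1 was at least 349-fold higher (adjusted p = 1.93e-277, exact binomial test with Benjamini-Hochberg adjustment). Replicate 2 instead held 1151 reads in a genomic model, at chr11:53427202-53429150, which shares the 5′ edge of the 198-base ISM None exon and is 1949 bases long. The sum of both classes was 1664 CPM in replicate 1 and 1827 CPM in replicate 2, and the spliced reads of the gene were 723 and 1032. The sum differed by a ratio of 0.911, while each class was found in 1 library only.

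Mrpl30, of the large subunit of the mitochondrial ribosome, had 251 ISM None reads in replicate 1 and 0 in replicate 2, which held 400 reads in a genomic model. Both models ended at chr1 position 37898338, with lengths of 278 bases for the ISM None model and 174 bases for the genomic model. The classes together took 79.7% of the reads of the gene in replicate 1 and 79.5% in replicate 2. Ivns1abp, an actin-binding protein, had 92 ISM None reads in replicate 1 and 0 in replicate 2, beside 1 and 136 genomic reads, so that the sums were 216.2 and 215.9 CPM.

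In other genes the classes stood the other way round. Gabarapl1, an ATG8-family protein of autophagy, had 0 ISM None reads in replicate 1 and 308 in replicate 2, beside 229 and 0 genomic reads, with sums of 532 and 489 CPM. Acot13, an acyl-CoA thioesterase, had 0 and 219 ISM None reads beside 146 and 0 genomic reads, with sums of 339 and 348 CPM. Its genomic model in replicate 1 was 50 bases long with 145 reads, and shares the 3′ edge of the 244-base exon. Lpl, the lipoprotein lipase, had 3 and 161 ISM None reads beside 78 and 0 genomic reads. Kcnk3, a potassium leak channel, had 76 and 53 ISM None reads beside 0 and 94 genomic reads, and in replicate 2 its ISM None model covered the first 1652 bases of the 3381-base model of replicate 1, up to the base where the genomic model began.

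In further called genes with large differences 1 library held ISM None reads and the other genomic reads, given as reads in replicate 1 and replicate 2. Acadl, a fatty acid dehydrogenase of the mitochondrion, had 68 and 0 ISM None reads beside 0 and 113 genomic reads. Tubb4b had 41 and 0 beside 0 and 69, Aamp 39 and 0 beside 0 and 57, Dlst, of the oxoglutarate dehydrogenase complex, 38 and 0 beside 0 and 45, Myom2 29 and 0 beside 0 and 49, Ywhag 25 and 0 beside 0 and 22, Laptm4a 23 and 0 beside 0 and 28, and Ddx6 23 and 0 beside 0 and 26. Phyh, a peroxisomal hydroxylase, had 39 and 0 beside 0 and 24, and its sum was 2.38-fold higher in replicate 1. Tmem38a, a cation channel of the sarcoplasmic reticulum, had 0 and 55 beside 17 and 0, and its sum was 2.21-fold higher in replicate 2. The sum for Ywhag was 1.66-fold higher in replicate 1. The genomic models of Aamp and Ywhag in replicate 2 were 7 bases and 1 base long, so these model edges cannot be read as the span of the reads.

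**Figure D4:**
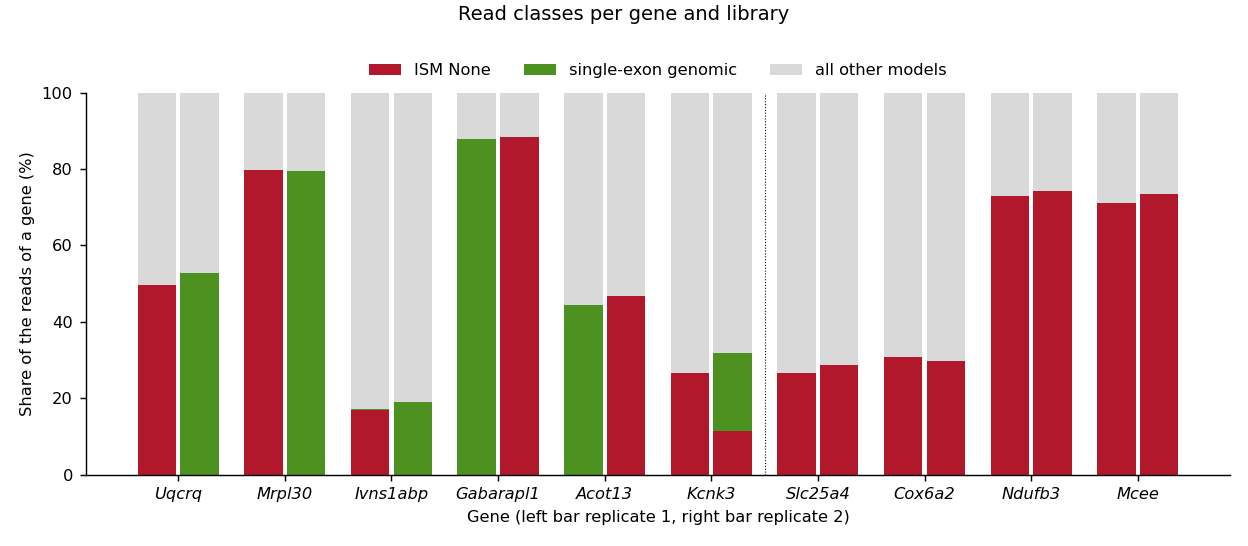
Stacked bars give the share of the reads of a gene, in percent, in ISM None models (red), single-exon genomic models (green) and all other models (grey), with replicate 1 left of replicate 2 for each gene. Left of the dotted line red and green trade places between the libraries (in part for Kcnk3) at a similar summed height, as in Mrpl30 with 79.7% and 79.5%, and right of it 4 genes were ISM None in both.

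Only 2 called genes had no genomic reads in the lower library, and they are named after their values were seen. Myadm had 0 ISM None reads in replicate 1 and 19 in replicate 2, where the level was at least 4.33-fold higher. Hba-a2, an alpha globin gene, had 16 and 5 ISM None reads, of 885 and 343 reads in all, and was the called gene whose total also differed by more than 2-fold. Its reads and those of its near-identical copy Hba-a1 may be split between them by the authors' counting, and erythroid markers as a group were higher in replicate 1. The part of blood RNA in this call was not tested.

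Single-exon ISM None and single-exon genomic models were then merged into 1 class, a choice made after seeing the data. Spliced ISM None reads, which the sums above include, were left out of that test. In it 1 of the same 352 genes was called, against 0.794% of all 10076 units. The gene was Myadm (adjusted p = 0.00798, exact binomial test with Benjamini-Hochberg adjustment). A call lost in the merged class does not show equal levels. Hba-a2, with no genomic reads, kept its 4.68-fold difference, and its adjusted p was 0.0923 in the merged test and 0.0451 on ISM None reads (exact binomial test with Benjamini-Hochberg adjustment). An unadjusted p under 0.05 was found for 33 of the 352 on the merged class and for 125 on ISM None reads alone. As a description across the 352 genes, which share their libraries and are not independent replicates, Pearson's r of log2(CPM + 1) between the libraries was 0.0215 for ISM None reads, 0.864 for the merged class and 0.977 for the spliced reads of the same genes. The share of genes within 1.5-fold was 49.4%, 71.0% and 86.6%. The genes were chosen by their summed ISM None reads, so a gene could pass through 1 library alone. That choice can lower the agreement of ISM None reads in itself, and the values for the other reads are not a like comparison.

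**Figure D5:**
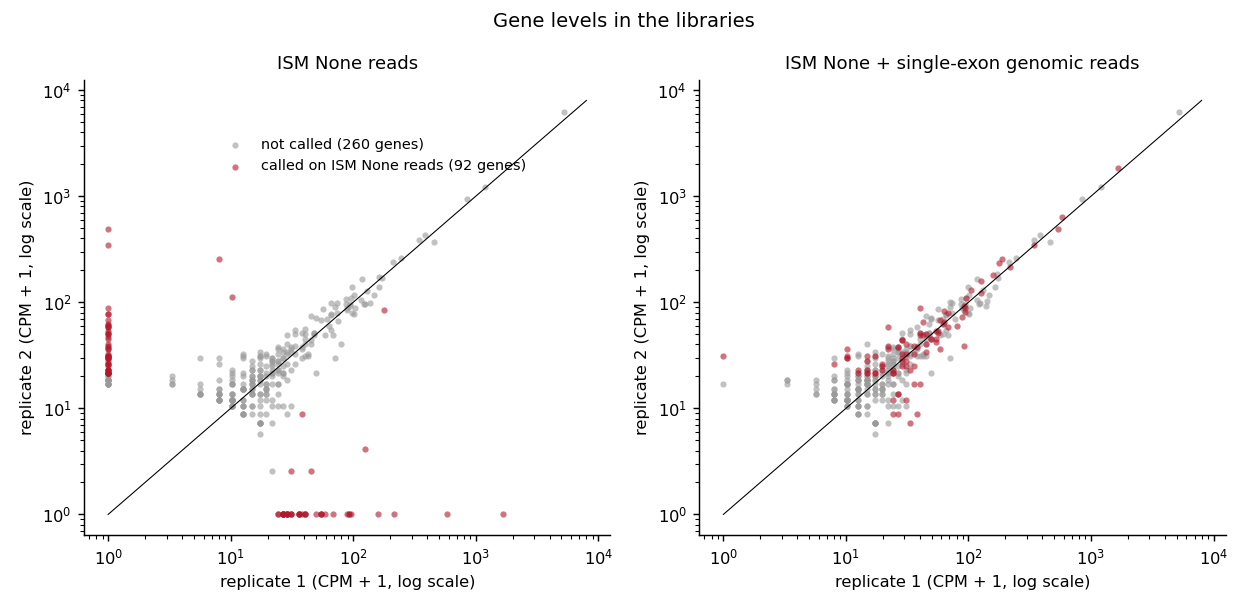
Each point is 1 of 352 genes, chosen by their summed ISM None reads, with CPM + 1 in replicate 1 against replicate 2 on log axes. ISM None reads are at left and ISM None plus single-exon genomic reads at right, and the line marks equal levels. The 92 genes called on ISM None reads, in red, lie mostly on the axes at left and near the line at right, with r of 0.0215 and 0.864.

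The majority class was counted over all 1111 genes with at least 10 summed reads in single-exon models of either class. ISM None models held the majority in both libraries for 245 genes (22.1%), and genomic models in both for 655 (59.0%). The majority was ISM None in replicate 1 and genomic in replicate 2 for 101 genes, and the reverse for 99. These 200 genes held overlapping models of the opposite class in 197 cases, compared through the most-read model of each. The models shared the 3′ end in 139 of the 197, the 5′ end in 15 and neither end in 45, and a pair alike at both ends counts under each. The ISM None model was the longer one in 166, with a median of 1383 bases against 702 bases. Genomic models could be as short as 1 base, so these lengths do not give the span of the reads. Within a library, only 8 of 1336 and 7 of 1700 single-exon ISM None models were overlapped by another single-exon model by more than 1 base, so a stretch of exon seldom held both classes at once. How the program chose the class was not tested.

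Recurrence of the models showed the same split. Of the single-exon models, 470 had exactly the same edges in the other library, 35.2% of those in replicate 1 and 27.6% of those in replicate 2, with 61.1% and 64.8% of the reads. Of the models without such a match, the other library had an overlapping genomic model for 362 in replicate 1 and 397 in replicate 2, an ISM None model with other edges for 138 and 139, and no single-exon model for 360 and 690. The reads of those with no counterpart were few, 453 and 1036. An overlapping single-exon model of any class, an alternative added after seeing the data, was found for 73.1% and 59.4% of the models and for 95.8% and 93.6% of the reads. A gene with single-exon members had just 1 in 98.9% and 98.4% of cases, and never more than 2.

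The share of reads in ISM None models was not highest for the longest terminal exons. Genes that had 20 or more reads in both libraries were divided by the last exon of their most-read known transcript. ISM None models took 1.21 ± 0.07% of reads where that exon had up to 200 bases, 2.38 ± 0.01% from 200 to 500 bases, 4.16 ± 0.22% from 500 to 1000 bases, 2.50 ± 0.41% from 1000 to 2000 bases, 2.47 ± 0.22% from 2000 to 4000 bases and 1.11 ± 0.27% above. The peak rested on Slc25a4, without which the 500 to 1000 base group had 1.55 ± 0.05%. Single-exon genomic models took 0.52 ± 0.08% in the shortest group and 10.7 ± 0.9% from 2000 to 4000 bases. The 1242 genes with ISM None models had a median last exon of 914.5 bases and the 1916 genes without had 1034.5 bases, with medians of 135 and 92 summed reads, so genes with ISM None models were also read more deeply.

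The share of reads in ISM None models ran between 0 and 4.04% over 12 heart gene lists, given here as counts with no test of a list. Calls in a list stand beside 26.1% of all 352 genes tested on ISM None reads, and with so few members tested they show nothing particular to a list. Over all 14514 annotated nuclear genes read, 2477 had an ISM None model and 636 had one in both libraries, with 2.55 ± 0.03% of reads. Z-disc, M-band and giant proteins had ISM None models in 12 of 19 genes read, with 4.04 ± 0.36% of their reads, a median share of 3.47% per gene against 0% over all genes, and 2 genes of 9 called, both higher in replicate 1. Des (147 and 242 ISM None reads of 1325 and 2017), Myom1 (22.1% and 25.6% of its reads) and Xirp2 (58.7% and 63.8%) were the highest of them. Thick and thin filament genes had models in 14 of 15, but with 0.73 ± 0.001% of their reads, and 1 of 7 was called, higher in replicate 1. The highest were Tnni3 (25.7% and 21.9%), Actc1, the cardiac actin (4.4% and 3.8%), and Myl3, an essential myosin light chain (1.3% in each).

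The metabolic lists held 0.80 to 1.38% of their reads in the class. Oxidative phosphorylation, a list of 22 names that matched 23 genes read, had models in 19 of them with 1.38 ± 0.13% of reads. Of its genes 1 of 14 was called, higher in replicate 2. The list left out Cox6a2, Ndufb3, Uqcrq, Ndufa5 and Sdhd, all among the 20 genes with the highest ISM None level. Its share therefore does not stand for respiratory chain genes as a whole. Fatty acid use had 17 of 18 with 1.33 ± 0.28%, with 1 of 10 called higher in replicate 1 and 4 higher in replicate 2. The list of the TCA cycle, glycolysis and creatine kinase had 18 of 23 with 0.80 ± 0.05%, and 1 of 11 called in each direction. Ogdh, a subunit of the oxoglutarate dehydrogenase complex, was the highest of that list with 114 and 103 CPM, and Cs, the citrate synthase, had 69.7 and 88.9 CPM. Acaa2, a thiolase of fatty acid oxidation, had 72.1 and 96.8 CPM, and Atp5b, the beta subunit of ATP synthase, had 65.1 and 74.6 CPM, which was 0.67% and 0.68% of its reads.

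Calcium handling genes had models in 5 of 14, with 0.38 ± 0.33% of reads and 1 of 3 called. That gene was Atp2a2, whose product pumps calcium back into the sarcoplasmic reticulum, with 53 and 2 ISM None reads beside 1 and 98 genomic reads. S100a1, a calcium-binding protein, had 9 and 15 ISM None reads, and Ryr2 had 8 and 5. Ion channels and transporters of the cell membrane had 6 of 16 genes with 2.99 ± 1.02% of reads, and 1 of 4 was called higher in replicate 1 and 2 higher in replicate 2. Among them Gja1, the connexin of cardiac gap junctions, had 46.5 and 50.8 CPM, Atp1b1, of the sodium pump, had 0 and 22 reads beside 9 and 0 genomic reads, and Kcnj3 had 11 and 0 beside 0 and 5.

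Protein quality and turnover genes had models in 8 of 15, with 3.82 ± 0.30% of reads and 1 of 6 called, higher in replicate 2. Hspb7, a small heat shock protein of heart and muscle, had 24.7% and 25.9% of its reads in ISM None models, and Ubb had 1.5% in each. Matrix and fibroblast genes had models in 6 of 15, with 1.60 ± 0.05%, and neither of the 2 tested was called. Col4a2, a basement membrane collagen, had 41.3% and 40.8% of its reads there, while Col4a1 had 0 and 5 reads. Endothelial genes had 4 of 10 with 1.75 ± 0.34% and 0 of 1 called, with Cdh5 at 4 and 7 reads, Eng at 1 and 7 and Tie1 at 3 and 0. Erythroid genes had 5 of 6 with 1.09 ± 0.09% and 1 of 3 called, which was Hba-a2, and Hba-a1 had 30 and 18 reads and Hbb-bt 7 and 4. None of the 7 long non-coding RNA genes read from that list had an ISM None model.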

How the data were processed

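Per the labels, the libraries came from hearts, and the authors deposited 1 table per library with raw read counts per transcript model, with no normalization and no pooling. Reads were aligned to mm10 and compared with GENCODE M21, per the text deposited beside the tables, and the deposited annotation files name TALON. The aligner and its parameters were not given in the sources read. Exon counts and lengths describe models. Counts on ERCC and SIRV sequences, antisense models on them included, were left out: 6419 reads in replicate 1 and 7828 in replicate 2.

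Models were joined to their exons in the deposited annotation and placed on GENCODE M21 exons of the same gene and strand. CPM was calculated here from counts of annotated nuclear genes. Log2 ratios had 0.5 reads added. The binomial test was adjusted over all gene and class units with at least 10 summed reads. In simulated data with 200 units changed 4-fold it recovered 99.5% of them, with 5 false calls, over 9363 units. The changed units were drawn from more deeply read ones, and counts varied by counting error alone, as the test assumes. The recovery therefore does not give the power for genes near 10 reads or with a wider spread. Named genes were the 20 highest by mean CPM, the 15 largest shares, up to 15 called genes with the largest fold and the 3 highest of each list. The members, lists and rules were chosen with earlier results of these data known. Some items are not reported here. Python 3.11.15, SciPy 1.17.1, NumPy 2.4.6 and matplotlib 3.10.9 were used.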

Additional observations from a re-analysis of the deposited data

How the results depend on the processing

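Depth limits genes with few reads, the labels do not settle whether the libraries came from separate animals, and model edges are not read ends. No paired analysis was possible because there was 1 group. Leaving out a library gave the value of the other: 2.44 to 2.48% of mouse reads, 2.51 to 2.64% of mouse models, 93.4 to 94.0% with 1 exon, a median length of 695 to 707 bases, 27.6 to 35.2% recurrence, 85.3 to 87.9% with the 3′ end and 3.06 to 3.97% with the 5′ end near the annotation, 6.54 to 7.68% before an A-rich window, 77.4 to 77.8% with a hexamer and 80.1 to 83.5% equal to a last exon.

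Of 2.46% of mouse reads, the mean became 2.55% over annotated nuclear genes, 2.50% over models with at least 2 reads and 2.39% with at least 5. The 2.57% of mouse models became 2.90%, 3.58% and 3.30% in the same order. The 93.7% with 1 exon became 99.6% and 99.8% with at least 2 and 5 reads. The median length of 701 bases became 756.5 weighted by reads, 633.5 for single-exon models and 677 with at least 5 reads. Recurrence of 31.4% became 37.2% and 37.3% with tolerances of 50 and 100 bases, and 66.2% with any overlapping single-exon model, which was added after seeing the data.

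Weighted by reads, the 3′ end share of 86.6% became 93.9%, the 5′ end share of 3.52% became 0.736%, the A-rich share of 7.11% became 4.43%, the hexamer share of 77.6% became 62.6% and the last exon share of 81.8% became 88.6%, or 85.1% without Slc25a4, both added after seeing the data. For single-exon models alone the 3′ end share was 89.1%, the 5′ end share 2.33% and the hexamer share 78.8%. The A-rich share was 9.87% with at least 10 A and 5.62% with at least 14 A, and the hexamer share was 75.7% in the last 40 bases.

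The 92 called genes became 43 with a minimum of 20 summed reads, where fewer genes are tested, and 1 with the merged class, added after seeing the data. They stayed between 84 and 105 with the other totals and minimums. Spike-in totals moved every log2 ratio by -0.26, and split 105 calls into 41 higher in replicate 1 and 64 higher in replicate 2, against 43 and 49.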
